A study of Mus musculus with 11 samples.

Results

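The 10 genes described here, Abca4, Guca1a, Gucy2e, Prph2, Rpgrip1, Cerkl, Cacna1f, Cacna2d4, Kcnv2 and Prom1, are genes whose human counterparts are mutated in inherited cone or cone-rod dystrophy. They were taken by name from the 38393 genes of the expression tables, and all 10 were found. Total RNA was sequenced from whole eyes of C57BL/6 mice (C57BL/6J in the study's methods) at 1-2 months of age, with the lens and cornea removed and the retina, RPE, choroid, sclera and ciliary body retained. The 11 libraries came from 5 wild type (WT) animals and 6 miR-211-KO (KO) animals, which lack the precursor of the microRNA miR-211 in every cell. The study's methods give 2 males and 3 females for the WT group and males alone for the KO group, so sex and genotype cannot be fully told apart. Which WT libraries are from males is not labelled. In the expression tables Xist, the transcript of the inactive X chromosome, was at 796 to 1636 CPM (read counts scaled to a common library size) in 3 WT libraries and at 0.451 to 1.29 CPM in the other 8. The labels name separate samples, and the p-values below set the difference between genotypes against the spread between these samples.

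In cone dystrophy the photoreceptors for colour and daylight vision fail first, and in cone-rod dystrophy the rods follow. Most of the products of these genes act in both rods and cones, at successive stations of the same cell. The outer segment holds stacked membrane discs in which light is captured and cGMP is turned over, the connecting cilium carries proteins to it, the inner segment holds potassium channels that shape the light response, and the ribbon synapse releases glutamate through a calcium channel. Prph2, Prom1 and Abca4 belong to the discs, Gucy2e and Guca1a to the cGMP cycle, Rpgrip1 to the cilium, Kcnv2 to the potassium current, and Cacna1f and Cacna2d4 to the synapse. The role of the product of Cerkl, a protein related to ceramide kinase, is less well defined. MicroRNAs such as miR-211 lower target transcripts by pairing their seed, bases 2 to 8, with sites mostly in 3′ untranslated regions (3′UTRs).

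The deleted microRNA and its paralogue miR-204 are shown because both have the same seed, in capitals. The sequences are from RefSeq with GRCm38.p6 coordinates and are written 5′ to 3′.
mmu-miR-211-5p (chr7:64205831-64205852, plus strand): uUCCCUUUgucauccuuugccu
mmu-miR-204-5p (chr19:22750610-22750631, plus strand): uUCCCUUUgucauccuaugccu

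The 7 bases that pair with this seed, AAAGGGA, were searched on the transcript strand in the longest annotated 3′UTR of each gene. They were found in 2 of the 10 genes, Rpgrip1 and Cacna2d4, compared with 16.58% of 14556 tested genes with an annotated 3′UTR. Each of the 2 genes held 2 matches, printed below with 8 bases on either side and the match in capitals. The coordinates are those of the match on GRCm38.
Rpgrip1 (chr14:52160691-52160697, plus strand): gagaaagtAAAGGGAagagcagc
Rpgrip1 (chr14:52161127-52161133, plus strand): gaactgatAAAGGGAcggacgga
Cacna2d4 (chr6:119350466-119350472, plus strand): ttgccaccAAAGGGAaggtgctt
Cacna2d4 (chr6:119350772-119350778, plus strand): aatctcagAAAGGGAaagaaaag

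In Rpgrip1 the matches began at bases 473 and 909 of a 1121-base 3′UTR, and in Cacna2d4 at bases 331 and 637 of a 2272-base 3′UTR. Gucy2e and Kcnv2 had longer 3′UTRs, of 4918 and 3256 bases, with no match in them. The other 6 genes, with 3′UTRs of 77 to 1386 bases, had none either. A match is only a stretch of letters, and whether any of these sites is bound in the eye was not tested.

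The 250 bases before and 50 bases after the transcription start were read from the RefSeq promoter table for 8 of the genes. Kcnv2 and Cacna2d4 were not matched. The hexamer TAATCC, the core preferred by the photoreceptor homeodomain factor CRX, was searched on both strands. It was present in 4 of these 8 genes, compared with 8.14% of the 27025 genes of the table and 7.06% of its 32851 promoters. All 4 matches lay on the strand opposite to the gene and so read GGATTA on the strand of the gene. They began 57 bases before the start site in Guca1a, 42 in Gucy2e, 58 in Abca4 and 28 in Rpgrip1. The promoters that hold the hexamer are given below on the strand of the gene, with the match in capitals.
Guca1a (chr17:47400557-47400856, minus strand): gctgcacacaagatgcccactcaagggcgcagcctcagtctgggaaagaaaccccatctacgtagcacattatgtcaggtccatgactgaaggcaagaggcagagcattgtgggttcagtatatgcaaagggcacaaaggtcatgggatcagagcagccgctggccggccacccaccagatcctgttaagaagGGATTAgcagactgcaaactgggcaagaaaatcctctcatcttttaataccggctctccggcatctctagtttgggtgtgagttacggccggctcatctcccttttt
Gucy2e (chr11:69236973-69237272, minus strand): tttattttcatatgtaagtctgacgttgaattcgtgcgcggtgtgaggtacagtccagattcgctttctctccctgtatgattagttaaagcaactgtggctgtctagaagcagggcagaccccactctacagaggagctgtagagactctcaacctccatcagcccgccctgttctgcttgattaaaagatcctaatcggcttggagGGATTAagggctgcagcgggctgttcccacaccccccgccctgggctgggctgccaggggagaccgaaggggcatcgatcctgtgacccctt
Abca4 (chr3:122044210-122044509, plus strand): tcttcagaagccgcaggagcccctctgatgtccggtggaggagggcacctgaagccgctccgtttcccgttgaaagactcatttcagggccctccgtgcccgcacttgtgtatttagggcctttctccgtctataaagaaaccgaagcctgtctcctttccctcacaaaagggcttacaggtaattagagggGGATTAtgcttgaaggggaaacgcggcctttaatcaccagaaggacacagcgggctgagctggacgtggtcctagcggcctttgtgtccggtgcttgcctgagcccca
Rpgrip1 (chr14:52110653-52110952, plus strand): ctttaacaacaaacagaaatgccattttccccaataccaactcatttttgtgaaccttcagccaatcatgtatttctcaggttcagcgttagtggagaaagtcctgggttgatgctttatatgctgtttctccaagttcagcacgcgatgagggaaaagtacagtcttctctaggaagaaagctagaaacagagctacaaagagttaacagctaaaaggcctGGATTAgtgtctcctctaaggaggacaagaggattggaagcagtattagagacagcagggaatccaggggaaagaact

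The promoters of Prph2, Cerkl and Cacna1f and both promoters listed for Prom1 did not hold these letters. The 4 genes with the hexamer have different functions, being 2 enzymes or regulators of the cGMP cycle, 1 lipid transporter and 1 ciliary protein.

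The libraries held 20282241 to 36317673 read pairs assigned to genes, so that 1 CPM stood for 20.3 to 36.3 read pairs. Mir211 was at 0 counts in every library, WT included, so that its counts do not check the genotype. Its host gene Trpm1 was read at 331 to 496 CPM in WT and at 413 to 465 CPM in KO. Rod transcripts, the sum of 10 marker genes, were present at 28170 to 43720 CPM in WT and at 33140 to 44300 CPM in KO, and cone transcripts, the sum of 9 markers, at 812 to 961 and at 838 to 940 CPM. All 9 cone markers and all 10 rod markers passed the expression filter. Crystallin and other lens transcripts, although the lens had been removed, reached 83690 CPM in WT library 4, 24080 in KO library 3 and 3289 in KO library 6, and stayed between 3.68 and 66.98 CPM in the other 8 libraries. Cornea and conjunctiva markers, although the cornea had been removed, summed to 1129 to 7380 CPM in WT and to 1540 to 8476 CPM in KO. The library names in a supplementary table of the study fall into 2 series, one with mouse numbers (WT 1 and 2, KO 1 to 3) and one with ages of 1 or 2 months (WT 3 to 5, KO 4 to 6).

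Levels of different genes were compared as FPKM, fragments scaled by gene length and by the mapped fragments of the library, as the authors deposited them. The 10 genes spanned 115.9-fold in mean FPKM over the 11 libraries. Prph2, which encodes the tetraspanin peripherin-2 of the disc rim, was the highest at 1297 ± 237 FPKM (SD, n = 11) and exceeded 99.8% of the tested genes. Guca1a, the guanylate cyclase activator GCAP1, followed at 475 ± 97.4 FPKM, Rpgrip1, the ciliary anchor of RPGR, at 395 ± 57.7 FPKM and Abca4, the disc transporter that clears retinoid, at 279 ± 49.2 FPKM. In the middle of the order were Prom1, a membrane glycoprotein of forming discs, at 165 ± 19.4 FPKM, Cacna1f, the pore subunit of the Cav1.4 channel, at 106 ± 17.8 FPKM, Kcnv2, the modifier subunit Kv8.2, at 91.96 ± 24.2 FPKM and Gucy2e, the retinal guanylate cyclase GC1, at 89.9 ± 17.5 FPKM. Cacna2d4, the α2δ4 subunit of the same calcium channel, was at 67.7 ± 8.72 FPKM, and Cerkl was lowest at 11.2 ± 2.78 FPKM, above 53.8% of the tested genes.

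Of the 9 steps in this order, all but 2 were seen in each of the 11 libraries. The exceptions were Guca1a over Rpgrip1, which was found in 5 of 5 WT and 3 of 6 KO libraries, and Kcnv2 over Gucy2e, which was found in 1 of 5 WT and 5 of 6 KO libraries. The order within these 2 pairs of neighbours was therefore not the same in all libraries, and whether it differed between genotypes was not tested. Within the cGMP cycle the activator Guca1a was thus well above the cyclase Gucy2e, and at the synapse Cacna1f was above its partner Cacna2d4 in all libraries.

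**Figure D1:**
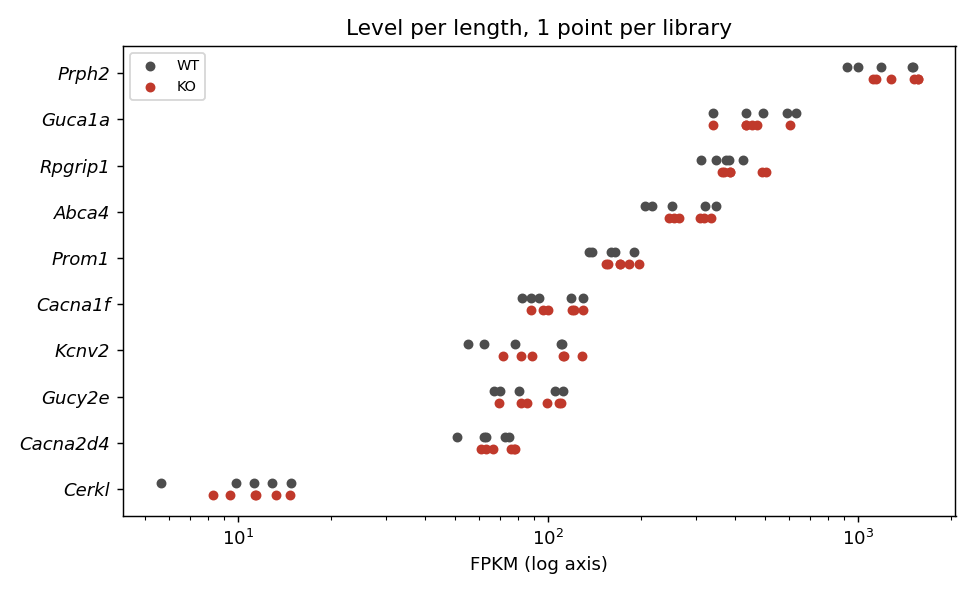
Deposited FPKM (log axis) of the 10 genes, 1 point per library, with 5 WT libraries in grey and 6 KO libraries in red. Prph2 lies far to the right, at a mean of 1297 FPKM, Cerkl far to the left at 11.2 FPKM, and the genotypes overlap in every gene.

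To ask whether the loss of miR-211 changed these transcripts, the expected counts of all 15767 expressed genes were compared between genotypes with edgeR's quasi-likelihood test. None of the 10 genes passed an adjusted p-value of 0.1 (background 0% of the tested genes), and the lowest adjusted p among them was 0.994. At an unadjusted p under 0.05 there were also 0 of the 10, against a background of 2.83%, or 446 genes. That background moved with the fit, to 1253 genes with the library series as a covariate, 255 without WT library 1 and 771 without WT library 3, and the count for the 10 genes stayed at 0 in these 3 fits. The CPM ranges of the genotypes overlapped in all 10 genes, where 0.184% of the tested genes had ranges that did not. Over all genes edgeR's likelihood-ratio test made 1 call, with 330 genes at an unadjusted p under 0.05, and DESeq2 made 2 calls, with 508 such genes. The called genes, named after their values were seen, were Xist in both and also Pear1 in DESeq2, and none of the 10 genes was among them. A total of 9 of the 10 had a fold change above 0, with a median log2 fold change of 0.08, while 51.1% of all tested genes did, with a median of 0.003. Without WT library 1 the count above 0 was 6 of 10 and the median 0.02. The 10 rod markers had the same pattern, with 9 above 0 and a median of 0.08. Of the 9 cone markers 5 were above and 4 below 0, with a median of 0.01. Of the 7 bipolar cell markers 5 were above and 2 below 0, with a median of 0.07. In whole eyes fewer cells of a type and less RNA per cell cannot be told apart. Of the markers of other tissues, 5 of 5 for adipocytes, 6 of 6 for skeletal muscle and 4 of 4 for blood had a fold change below 0, with none called. The 6 lens markers tested were below 0 as well, but their sum was highest in WT library 4, at 83690 CPM. The median of the lens sum was 26.13 CPM in WT and 53.44 CPM in KO. On the log2 scale its mean was 0.4 higher in KO. Of the cornea and conjunctiva markers 3 were above and 2 below 0, of the RPE markers 2 and 2, and of the Müller glia markers 2 and 3. None of these was called either. The adipocyte sum was at 9.89 to 415 CPM in WT, highest in WT library 1, and at 9.14 to 202 CPM in KO. The skeletal muscle sum was at 737 to 5858 CPM in WT and at 543 to 6341 CPM in KO, and the blood sum at 182.5 to 1781 and at 129 to 1088 CPM. All 3 sums overlapped between genotypes, and their part in the fold changes of the 10 genes was not tested.

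**Figure D2:**
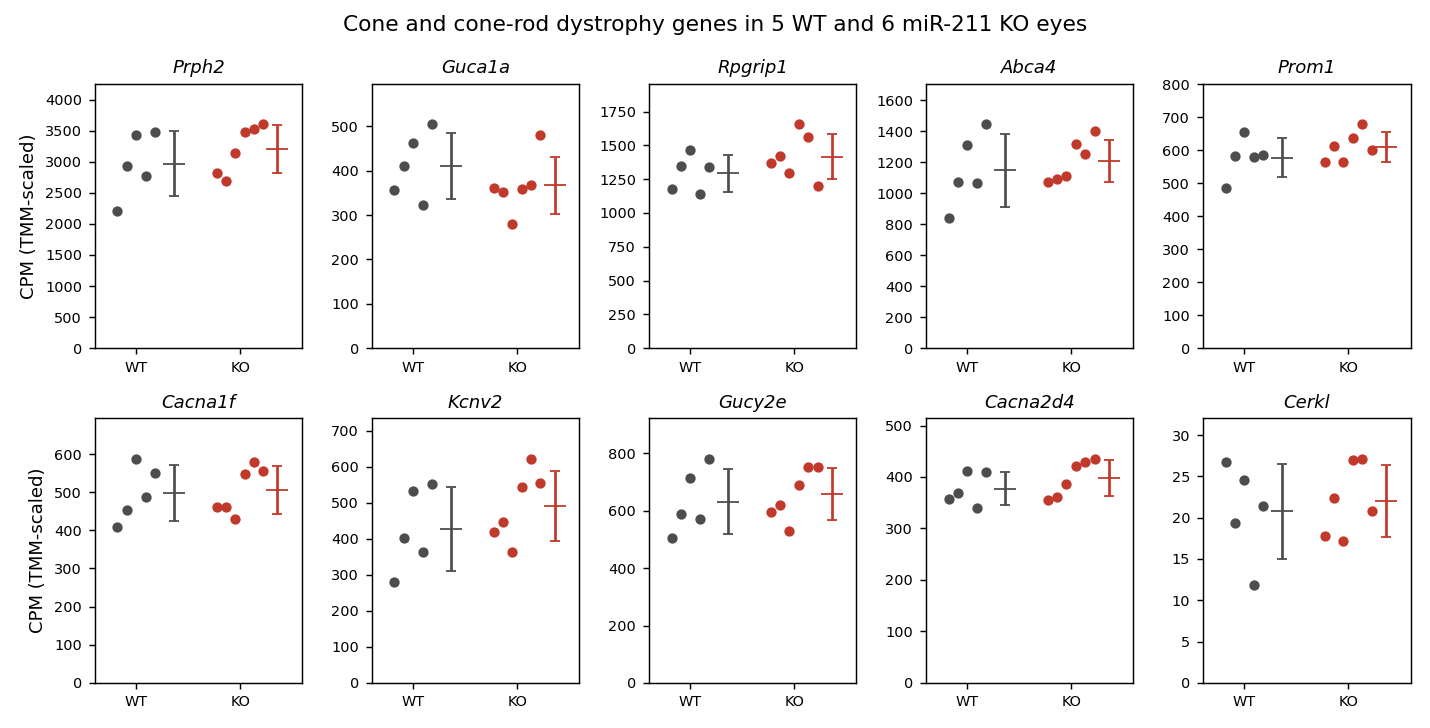
TMM-scaled CPM of each gene in WT (grey) and KO (red), 1 point per library in order of library number, with the mean and SD of the group to the right of its points (5 WT, 6 KO). The points of the genotypes overlap in all 10 panels, and WT library 1 is the lowest point for Abca4, Cacna1f, Gucy2e, Kcnv2, Prom1 and Prph2.

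Among the disc genes, Prph2 was read at 2209, 2925, 3436, 2777 and 3484 CPM in WT libraries 1 to 5 and at 2691 to 3609 CPM in KO, with a median of 3307. There were 2 KO libraries above every WT library, and WT library 1 was the lowest of all. The means were 2966 ± 525 (SD, n = 5) and 3210 ± 390 (SD, n = 6) CPM, a log2 fold change of 0.11 with a 95% interval of -0.18 to 0.41, and of 0.025 without WT library 1. Abca4 was at 840.5, 1070, 1311, 1068 and 1446 CPM in WT and at 1074 to 1401 CPM in KO, with a median of 1181. All 6 KO libraries lay within the WT range, and the log2 fold change was 0.07 with an interval of -0.23 to 0.38. Prom1 was among the least variable of the genes, at 486, 583, 654, 578 and 586 CPM in WT and at 562 to 679 CPM in KO, with a median of 607. One KO library was above the WT range, and the log2 fold change of 0.08 had an interval of -0.11 to 0.27. Prom1 overlaps Gm16401 on the opposite strand, at a mean of 6.78 CPM, so reads in the shared stretch are uncertain in origin.

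In the cGMP cycle, Guca1a was the only one of the 10 genes with a lower mean in KO. It was read at 357, 410, 461.7, 323 and 505 CPM in WT and at 280 to 481 CPM in KO, with a median of 360. KO library 3 was below every WT library, and 4 of the other 5 KO libraries lay between 353 and 369 CPM. The log2 fold change was -0.16 with an interval of -0.49 to 0.16 (edgeR quasi-likelihood test, unadjusted p = 0.283). Gucy2e, the enzyme that GCAP1 regulates, went from 506, 587.5, 715, 571 and 782 CPM in WT to between 530 and 754 CPM in KO, with a median of 657. All KO values were inside the WT range, and the log2 fold change was 0.06 with an interval of -0.24 to 0.35.

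At the connecting cilium, Rpgrip1, which holds 2 of the seed matches shown above, was at 1174, 1346, 1466, 1137 and 1338 CPM in WT and at 1198 to 1658 CPM in KO, with a median of 1395. Of the KO libraries, 2 were above all WT libraries. Its log2 fold change of 0.13 had an interval of -0.10 to 0.37 and the smallest p of the 10 genes (edgeR quasi-likelihood test, unadjusted p = 0.242). On the opposite strand the gene overlaps Supt16, at a mean of 122 CPM, and since the sources used here do not state a stranded count, reads in the shared stretch are uncertain in origin.

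In the potassium current, Kcnv2 had the largest fold change of the 10 with all libraries included and one of the widest spreads. It was at 279, 404, 534, 363 and 553 CPM in WT and at 364 to 623 CPM in KO, with a median of 495. WT library 1 was the lowest library, and 2 KO libraries were above the WT range. The log2 fold change of 0.21 had an interval of -0.22 to 0.63, so that a change in either direction was compatible with these libraries. Without WT library 1 it was 0.086, below Cerkl (0.19) and Rpgrip1 (0.10), and it ranged up to 0.32 with another library left out.

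At the ribbon synapse, Cacna1f was at 408, 453, 588, 487 and 552 CPM in WT and at 430 to 580 CPM in KO, with a median of 505. Every KO library lay within the WT range, and the log2 fold change was 0.02 with an interval of -0.23 to 0.28. The gene is on the X chromosome, and the WT libraries with high Xist, numbers 1, 3 and 5, gave both the lowest and the highest values. Cacna1f separated the library series more than the genotypes, with 408 to 462.3 CPM in the 5 mouse-number libraries and 487 to 588 CPM in the 6 age-named libraries. Its partner Cacna2d4, the other gene with seed matches, was at 357, 369, 412, 339 and 410 CPM in WT and at 355 to 435.5 CPM in KO, with a median of 404. There were 3 KO libraries above the WT range. The log2 fold change of 0.08 had the narrowest interval of the 10 genes, -0.11 to 0.26, in the fit of all libraries. This fold change moved with the libraries used, to 0.15 ± 0.11 (SE) within the age-named and 0.016 ± 0.090 (SE) within the mouse-number libraries. Cacna2d4 overlaps Lrtm2 on the opposite strand, at a mean of 36.8 CPM, so reads in the shared stretch are uncertain in origin.

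Cerkl was the least expressed and the most variable gene, at 26.8, 19.35, 24.6, 11.8 and 21.35 CPM in WT and at 17.1 to 27.1 CPM in KO, with a median of 21.6. The lowest value was that of WT library 4, the library with the most lens transcripts. The log2 fold change was 0.08 with an interval of -0.35 to 0.52. The difference ran in opposite directions in the library series, at a log2 fold change of -0.27 in the mouse-number and 0.37 in the age-named libraries (edgeR within each series, neither passing the threshold). Cerkl shares its locus with Neurod1, on the same strand at 313 CPM, and with Itga4, on the opposite strand at 44.97 CPM, so reads in the shared stretches are uncertain in origin.

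No gene of the lists of partners passed the test either. Of 19 other cone and cone-rod dystrophy genes, 14 had a fold change above 0 and 5 below 0, with a median of 0.02, and 0 passed the test or reached an unadjusted p under 0.05 (edgeR quasi-likelihood test). Pitpnm3, a phosphatidylinositol transfer protein, had the smallest p of them, at a log2 fold change of 0.20 ± 0.17 (SE), and Unc119, a lipid-binding trafficking protein of photoreceptors, the highest level, at 840 FPKM and a log2 fold change of 0.08 ± 0.10 (SE). All 6 partners in the cyclase and calcium feedback were above 0, with a median of 0.08 and none passing, among them the exchanger Slc24a1 at 0.13 ± 0.15 (SE) and the activator GCAP2, encoded by Guca1b, at 0.05 ± 0.11 (SE). The latter gene was thus on the other side of 0 from Guca1a, with intervals that overlap, and the difference between them was not tested.

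All 6 partners in the discs and in retinoid clearance were above 0, with a median of 0.09 and none passing, led by Rom1, the tetraspanin partner of Prph2, at 0.11 ± 0.11 (SE). All 6 at the connecting cilium were above 0 as well, with a median of 0.10 and none passing, and Cep290, a protein of the ciliary transition zone, had the smallest p at 0.19 ± 0.13 (SE). At the ribbon synapse 6 were above and 2 below 0, with a median of 0.08, the smallest p for the scaffold gene Pclo (0.17 ± 0.18, SE) and the highest level for the calcium sensor gene Cabp4 (0.08 ± 0.13, SE). Of 3 genes of potassium and related currents 2 were above and 1 below 0, with a median of 0.07 and none passing.

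To compare the genes at a like content of rod transcripts, each was next expressed relative to the summed rod markers of the same library. On this scale Prph2 was nearly fixed, at 7.84% to 8.75% of the rod marker sum in all 11 libraries, and Abca4 was at 2.83% to 3.31%. The SD between libraries of a genotype fell from 0.223 on the log2 CPM scale to 0.048 for Prph2 and from 0.235 to 0.071 for Abca4. It was smaller than on the CPM scale for 7 of the 10 genes, and the median SD went from 0.225 to 0.146. Rpgrip1 (from 0.163 to 0.213), Prom1 (from 0.128 to 0.159) and Cerkl (from 0.374 to 0.399) had a larger SD on the ratio scale. Relative to 7 bipolar cell markers, by comparison, the SD was smaller than on the CPM scale for all 10 genes, but for Prph2 only down to 0.137 and for Abca4 to 0.165.

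**Figure D3:**
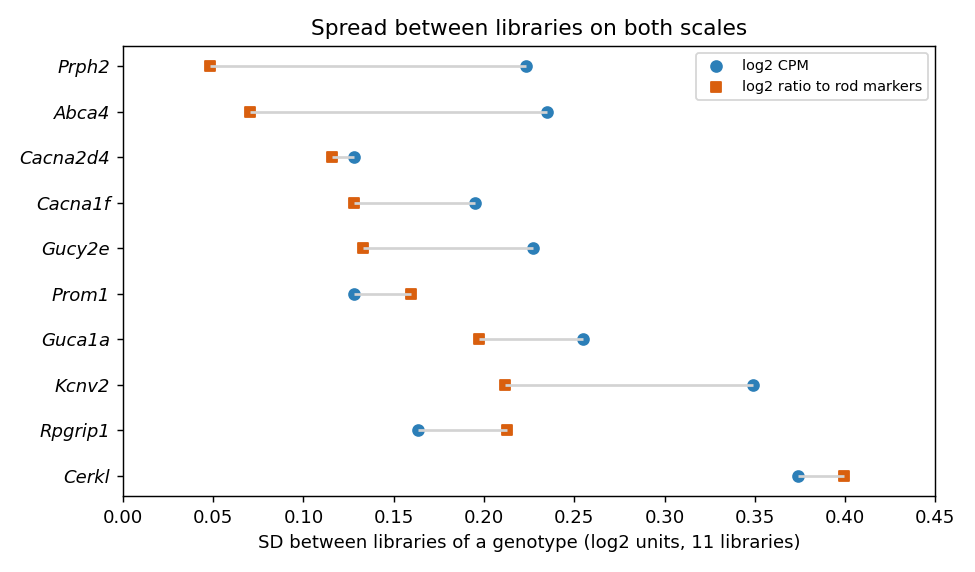
SD between libraries of a genotype (log2 units, 11 libraries, centred on the genotype means) for log2 CPM (blue circles) and for the log2 ratio to the summed rod markers (orange squares). Prph2 and Abca4 move furthest to the left, to 0.048 and 0.071, and Rpgrip1, Prom1 and Cerkl move to the right.

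For 9 of the 10 genes the mean log2 ratio to the rod markers differed between KO and WT by -0.09 to 0.11, with p between 0.286 and 0.998 (two-sided exact permutation test, 5 against 6 libraries). The intervals were narrow for Prph2 (difference 0.008, interval -0.05 to 0.07) and Abca4 (difference -0.02, interval -0.13 to 0.07), and wide for Cerkl (interval -0.52 to 0.50) and Rpgrip1 (interval -0.28 to 0.30). Gucy2e differed by -0.05 (interval -0.24 to 0.10), Prom1 by -0.03 (interval -0.25 to 0.18) and Kcnv2 by 0.11 (interval -0.18 to 0.38). The synapse genes Cacna1f and Cacna2d4 differed by -0.09 (interval -0.27 to 0.08) and by -0.04 (interval -0.20 to 0.09).

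Guca1a stood at 1.27%, 1.16%, 1.14%, 0.983% and 1.16% of the rod marker sum in WT libraries 1 to 5 and at 1.05%, 1.06%, 0.714%, 0.854%, 0.915% and 1.09% in KO libraries 1 to 6. There were 3 KO libraries below every WT library and none was above WT libraries 1, 2, 3 and 5, while WT library 4 was lower than 3 KO libraries. The difference of the mean log2 ratio was -0.28, or 0.824 times the WT ratio, with an interval of -0.57 to -0.02 and an unadjusted p of 0.0411 (two-sided exact permutation test, 1 of 10 genes so tested, smallest possible p 0.00216). The direction was the same within the mouse-number libraries (-0.38) and within the age-named libraries (-0.21). The p did not stay under 0.05 when WT library 1 (-0.24, p = 0.10), WT library 2 (-0.27, p = 0.081), WT library 3 (-0.28, p = 0.081), WT library 5 (-0.27, p = 0.081), KO library 3 (-0.20, p = 0.079), KO library 4 (-0.25, p = 0.079) or KO library 5 (-0.27, p = 0.079) was left out (exact permutation tests). Nor did it relative to the cone markers (-0.16, exact permutation p = 0.297) or the bipolar cell markers (-0.21, exact permutation p = 0.182). The rod marker sum was itself 0.12 higher on the log2 scale in KO and the cone marker sum differed by -0.001. Without the 3 libraries rich in lens transcripts the difference was -0.29 (exact permutation p = 0.0286, the smallest that the remaining libraries allow). This alternative was added after the values were seen, and it drops the lowest WT library (number 4, 0.983%) and the highest KO library (number 6, 1.09%). It also drops the lowest KO library (number 3, 0.714%).

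**Figure D4:**
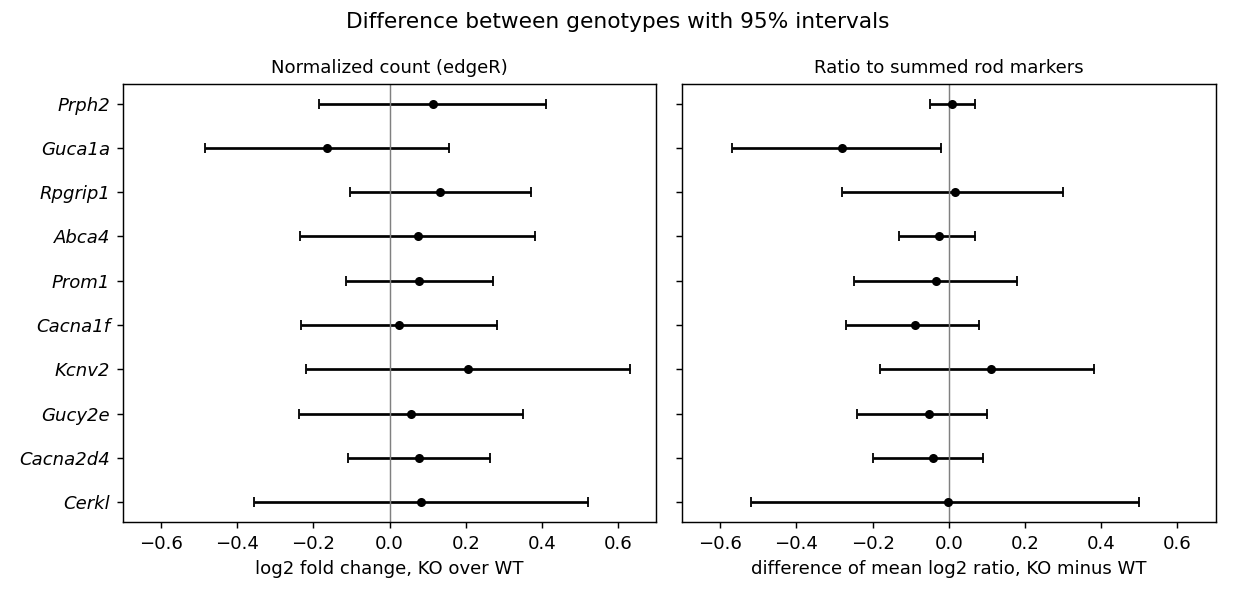
Difference between KO and WT for each gene, as the edgeR log2 fold change (left) and as the difference of the mean log2 ratio to the summed rod markers (right), with 95% intervals as bars (5 WT and 6 KO libraries). All intervals on the left hold 0, and on the right only that of Guca1a, -0.57 to -0.02, leaves it out.

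**Figure D5:**
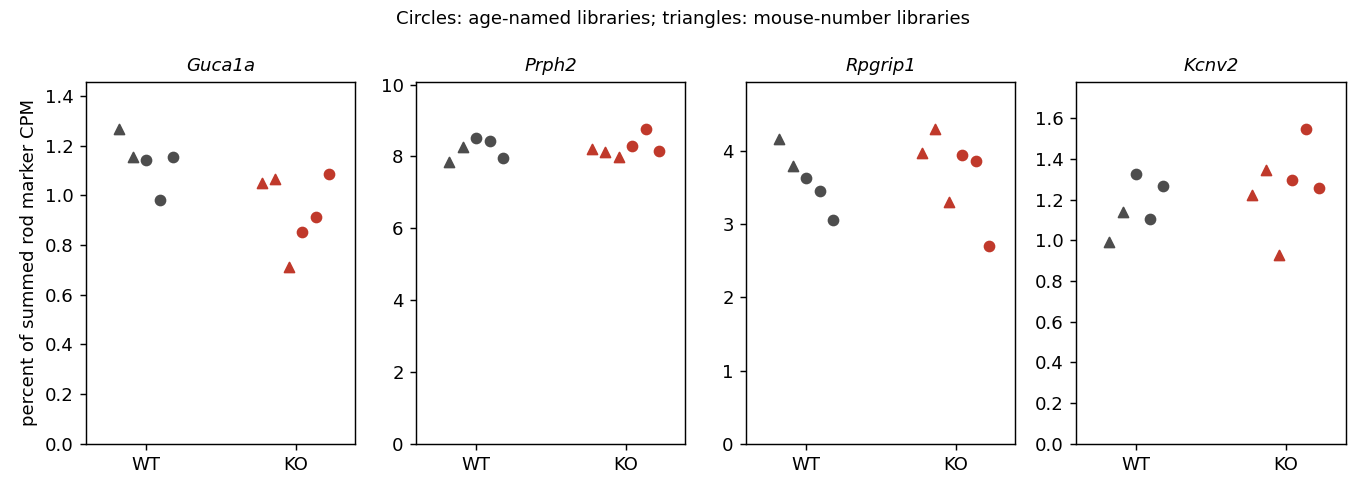
Level of 4 of the genes as percent of the summed rod marker CPM, 1 point per library in order of library number (WT grey, KO red, circles for age-named and triangles for mouse-number libraries). Prph2 stays between 7.84% and 8.75%, and Guca1a is lowest in KO library 3 at 0.714%, while Rpgrip1 and Kcnv2 overlap widely.

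The 10 genes varied together from library to library. After centring on the genotype means, Pearson's r of log2 CPM over the 11 libraries was above 0 for all 45 pairs of genes and had a median of 0.716. It was highest for Gucy2e and Kcnv2, at 0.976, and lowest for Prph2 and Cerkl, at 0.139. Kcnv2 had the highest median r with the other genes (0.859) and Cerkl (0.346) and Rpgrip1 (0.460) the lowest. On the scale of the ratio to the rod markers the median r of the pairs was 0.401, with 7 pairs below 0 and the highest value, 0.828, for Rpgrip1 and Prom1. These values describe the libraries only, because all genes of a library share its tissue composition, depth and, on the ratio scale, a denominator.

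Among all tested genes, those with a pattern nearest to each gene over the 11 centred libraries were found in the same way. Abca4 was nearest to Cdhr1 (r = 0.983), a cadherin of the disc margin that is itself a cone-rod dystrophy gene, and to Nr6a1 (r = 0.978). Prph2 was nearest to Gnb1 (r = 0.981), the β subunit of rod transducin, and to Rragb (r = 0.976). Gucy2e was nearest to Pip4k2b (r = 0.986) and Osbp2 (r = 0.984), and Kcnv2 to Wasf3 (r = 0.991) and Stk32b (r = 0.986). Cacna1f was nearest to Sptbn4 (r = 0.992) and Mllt6 (r = 0.990), Cacna2d4 to Tedc2 (r = 0.980) and Tmem59l (r = 0.977), and Prom1 to Dnajc27 (r = 0.988) and Nfx1 (r = 0.979). The nearest genes of Guca1a were Bicdl1 (r = 0.962) and Cdan1 (r = 0.957), those of Rpgrip1 were Zranb1 (r = 0.956) and Gm15601 (r = 0.945), and those of Cerkl were Tor1b (r = 0.964) and Inka2 (r = 0.960).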

How the data were processed

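Total RNA of 11 whole eyes was sequenced in pairs of 100 bases. The authors assigned the reads to Gencode mouse release M4 with RSEM 1.2.19 and deposited for each gene the expected count, an unscaled estimate of its read pairs, and the FPKM, scaled by length and by mapped fragments. Shared or overlapping reads are split by RSEM's estimate. The expected counts were rounded, and those genes that reached 1 CPM in 5 or more libraries were normalized by TMM and fitted with genotype in edgeR 4.0.16 (R 4.3.3; quasi-likelihood test, Benjamini-Hochberg over all genes, threshold 0.1). The study names edgeR's generalized linear model, of which the quasi-likelihood form was used here. FPKM served to compare genes and entered no main test. Ratios of CPM were tested by exact permutation (two-sided, all 462 splits), with 95% intervals by inverting the test, and were not adjusted for the 10 genes. The libraries held 20282241 to 36317673 read pairs each, and the intervals rest on the spread between libraries. Genotypes came from the labels, and the library series from column names of a supplementary table, matched by proportional counts over 63 genes. Symbols were matched for 95.43% of identifiers.

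The 10 genes, the partner lists and the marker lists were written with earlier results of these data known. All 10 genes, the 2 nearest genes to each, and the genes with the smallest p and the highest FPKM of each partner list are named, except where a gene is not reported here. Alternatives were the likelihood-ratio test, DESeq2 1.42.0, other scalings and filters, FPKM and other denominators for the ratio, the library series as a covariate or taken alone, a replicate block, leaving out each library, and, added after the data were seen, leaving out the 3 lens-rich libraries (over 1000 CPM of lens markers).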

Additional observations from a re-analysis of the deposited data

Results flagged for a closer look

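One result stood apart within its group. Relative to the summed rod markers, Abca4 was lowest in KO library 3, at a log2 ratio of -5.145, while the KO mean was -5.01. The gap to the next KO library took 0.632 of the range of the KO group, above the limit of 0.625 for 6 libraries. It was the only one of 40 groups of values examined in this way, and chance gives about 1 in 20. The low position of this library was not particular to Abca4. KO library 3 was also the lowest of KO on this scale for Guca1a (-7.131), Gucy2e (-6.21), Cacna1f (-6.513) and Kcnv2 (-6.751). The same held for Prph2, Cerkl and Cacna2d4, but not for Rpgrip1 and Prom1, which were lowest in KO library 6. KO library 3 held 24080 CPM of lens transcripts, and the part of these in the values was not tested.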

How the results depend on the processing

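The number of the 10 genes called was 0 under each alternative, and their median log2 fold change stayed above 0 throughout (0.02 to 0.13 with 1 library left out). The number of all genes called was 0 except 1 with the likelihood-ratio test and 2 with DESeq2. Fold changes turned sign in the mouse-number libraries for Cerkl (-0.27), with the replicate block for Cacna1f (-0.0006371), and with 1 library left out in the ranges of Abca4 (-0.019 to 0.17), Cacna1f (-0.039 to 0.092), Cerkl (-0.053 to 0.19) and Gucy2e (-0.014 to 0.14). Kcnv2 ranged from 0.086 to 0.32 and Prph2 from 0.025 to 0.18. No fold change of the 10 genes passed the threshold under any alternative, and the cause was not tested.

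Ratios to cone in place of rod markers turned sign for Abca4 (0.093), Gucy2e (0.064), Cerkl (0.12), Cacna1f (0.029), Cacna2d4 (0.077) and Prom1 (0.083), and ratios to bipolar cell markers for Abca4 (0.041), Gucy2e (0.013), Cerkl (0.064), Cacna2d4 (0.026) and Prom1 (0.032). Without the lens-rich libraries they did so for Abca4 (0.012), Gucy2e (0.021), Cacna1f (0.011) and Prom1 (0.082). With 1 library left out the ratio differences ranged from -0.045 to 0.0023 for Abca4, -0.082 to 0.026 for Cacna2d4, -0.16 to 0.19 for Cerkl, -0.084 to 0.011 for Gucy2e, -0.10 to 0.0080 for Prom1, -0.0091 to 0.022 for Prph2, -0.044 to 0.10 for Rpgrip1 and -0.33 to -0.20 for Guca1a. The cause was not tested. The likeness of the pairs of genes had a median r of 0.401 on the ratio scale.

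Same-numbered WT and KO libraries deviated together in 3 pairs (r = 0.537, 0.633 and 0.534) and apart in 2 (r = -0.332 and -0.258). The mean r was 0.223 for same-numbered and -0.0447 for differently numbered pairs. The pair at r = -0.332 crossed the library series, while every other same-numbered pair lay within a series. Because number and series largely coincide in these pairs, the values cannot tell whether the numbers pair the libraries. With the replicate block, which drops KO library 6, 0 genes were called, and the ratio differences of Cerkl (0.049) and Prom1 (0.0080) turned sign. The Guca1a ratio differed by -0.32 (exact test over all sign changes of the 5 paired differences, p = 0.0625, the smallest that 5 pairs allow).

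With 5 against 6 libraries, the 95% intervals of the fold changes reached from 0.19 (Cacna2d4) to 0.44 (Cerkl) to either side on the log2 scale. A term for the series made the SE smaller for 9 of the 10 genes (Cacna1f 0.064 in place of 0.117).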
